A study of Mus musculus with 4 samples.

Results

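Among the genes that the tumour suppressor p53 switches on, 10 grouped as targets outside cell death were described: Mdm2, Ccng1, Trp53inp1, Phlda3, Zmat3, Aen, Plk2, Gdf15, Rrm2b and Ei24. Aen is kept in this group although its nuclease degrades DNA in dying cells. The 10 genes were taken by gene symbol, as every probe set that the array annotation pairs with one of these symbols alone. This gave 21 probe sets for 9 of the 10 genes, out of 45101 probe sets and 18194 genes in the deposited table; Gdf15, a secreted stress cytokine, had no such probe set and was not analysed here. Each gene was read from its main probe set, the one with the highest mean over the arrays, and all 9 main probe sets passed the filter on low values that left 12264 genes. The study used Comma D beta, a mouse mammary epithelial cell line, grown overnight in medium with 2% serum, insulin and EGF. Flasks received doxycycline (dox) at 100 ng/ml for 1 day or none, and treated and untreated cells were then each sorted by FACS into cells with (Sca1+) and without (Sca1-) the surface antigen Sca1. Both fractions of both treatments were profiled, which gives 4 groups with 1 array each. All 4 groups share the same line and culture medium; what dox switches on in these cells is not stated in the labels, whose series title names Bcl11b.

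No group has a replicate, so a single difference has no test, and values below describe these arrays, and genes were counted by size, at 2-fold or more (a log2 difference of 1). Levels are log2 values per probe set, and the lowest value on every array is 3.32, the log2 of 10, at which the authors' table stops. The share of probe sets at this floor was 44.8% to 48.0%, and the median over the 10747 brightest probe sets (mean linear level of 100 or more) ran from 8.15 to 8.19. The actin control, a sign of RNA integrity, had a log2 excess of its 3' over its 5' probe set that ran from 0.69 on the untreated Sca1+ array to 0.91 on the dox Sca1- array, and its part in the results was not tested. Of 10 mammary epithelial markers, 9 passed the filter and Krt19 lay at the floor on every array. The summed linear level of these markers ran from 9490 on the dox Sca1+ array to 15563 on the untreated Sca1- array. Ptprc, the pan-leukocyte marker, and Cd3e, Cd3d, Cd3g, Cd4 and Cd2 of T cells lay at the floor on all arrays, as did Col1a1 and Col3a1 of fibroblasts and Cdh5 of endothelium. Of the listed markers with a probe set, 4 of 7 leukocyte, 4 of 7 fibroblast, 1 of 6 T cell and 1 of 5 endothelial ones passed the filter. Summed levels of the leukocyte list were 269 and 1344 on the untreated Sca1+ and Sca1- arrays and 182 and 254 with dox, and those of the fibroblast list 78.9 and 95.4 untreated and 757 and 424 with dox; their part in the results was not tested. In sorted bulk cells, fewer cells of a kind and less RNA per cell cannot be told apart.

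p53 is a transcription factor that is kept scarce by the ubiquitin ligase Mdm2 and accumulates when DNA is damaged or other stress signals arrive. It binds DNA as a tetramer at a pair of 10-base half-sites and raises a programme that restrains p53 itself, slows the cell cycle, supplies nucleotides for repair, or, at high output, kills the cell. Each of these genes also has other inputs, so its level alone does not report p53 activity. In the mammary gland p53 is a major guard against tumours. The parental COMMA-D line has been described as carrying mutant p53 alleles; the p53 status of these cells is not given in the labels and was not tested. Trp53, which encodes p53, was not analysed here, since no probe set carried its symbol alone.

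RefSeq promoter windows of build GRCm38.p6 were found for 6 of the 9 measured genes, and the 250 bases before the start of transcription were searched for the p53 half-site decamer, which reads the same on both strands. The half-site was present in 4 of the 6 genes (Ccng1, Mdm2, Aen and Ei24), against 8.2% of the 27025 genes and 7.13% of the 32851 windows in the table. A match describes these letters and is no sign of binding, and p53 sites can lie outside the window, as in the first intron of Mdm2. The promoters below are shown because Phlda3 and Plk2 had the largest lower and the largest higher level with dox, while Ccng1 and Ei24, which both carry the decamer, differed with dox in opposite directions; the sequences run 5' to 3' on the gene's strand and capitals mark the half-site.
Phlda3: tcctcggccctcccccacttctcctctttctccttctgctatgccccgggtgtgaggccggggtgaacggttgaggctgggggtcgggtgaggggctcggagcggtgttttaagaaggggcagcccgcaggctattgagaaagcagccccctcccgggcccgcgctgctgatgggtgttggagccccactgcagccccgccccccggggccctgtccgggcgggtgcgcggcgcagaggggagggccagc
Plk2: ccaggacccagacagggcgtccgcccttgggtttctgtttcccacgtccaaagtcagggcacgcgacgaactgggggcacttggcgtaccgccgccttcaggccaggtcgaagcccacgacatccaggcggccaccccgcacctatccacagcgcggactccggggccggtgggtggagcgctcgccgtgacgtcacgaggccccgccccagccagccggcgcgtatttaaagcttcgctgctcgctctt
Ccng1: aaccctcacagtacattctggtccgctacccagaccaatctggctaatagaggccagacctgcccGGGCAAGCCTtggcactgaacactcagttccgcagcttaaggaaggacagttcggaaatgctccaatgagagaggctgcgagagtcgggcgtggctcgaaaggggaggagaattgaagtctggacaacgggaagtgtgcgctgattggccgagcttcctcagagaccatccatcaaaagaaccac
Ei24: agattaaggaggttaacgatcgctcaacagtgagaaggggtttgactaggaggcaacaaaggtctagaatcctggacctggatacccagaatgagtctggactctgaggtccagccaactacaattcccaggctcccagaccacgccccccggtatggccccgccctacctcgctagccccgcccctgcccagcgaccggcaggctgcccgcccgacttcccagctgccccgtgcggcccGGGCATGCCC
They lie at chr1:135765835-135766084 (plus strand), chr13:110394794-110395043 (plus strand), chr11:40755287-40755536 (minus strand) and chr9:36797335-36797584 (minus strand). No decamer match was found in the Phlda3 and Plk2 windows. In Ccng1 the half-site GGGCAAGCCT ends 176 bases before the start, and the 10 bases just before it, agacctgccc, match the decamer with 1 mismatch over the 20 bases. Joined half-sites with no spacer and at most 1 mismatch occurred in 25 of all windows (0.0761%), a search that was added after the sequences had been seen. A limit of 2 mismatches gave 217 windows (0.661%). In the other windows of the measured genes the best joined pair had from 3 to 6 mismatches. The Ei24 half-site GGGCATGCCC occupies the last 10 bases before the start, the Mdm2 half-site GAACTTGCCT starts 186 bases before it, and the Aen half-site GGGCTTGTCC starts 121 bases before the second of the 2 Aen starts in the table. Trp53inp1, Zmat3 and Rrm2b had no entry.

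With dox the genes did not move as a block: Plk2 and Trp53inp1 were higher, Phlda3 was much lower, Ei24 was lower by about 2-fold, and Mdm2, by its main probe set, was within 1.1-fold of its untreated level. In Sca1+ cells 2 of the 9 genes were at least 2-fold higher (Trp53inp1 and Plk2) against 8.47% of all genes analysed, and 2 were at least 2-fold lower (Phlda3 and Ei24) against 12.9%. In Sca1- cells the same 2 genes were higher against 7.2% of all genes, and 1, Phlda3, was lower against 11.3%. In the same direction in both fractions, 2 were higher (5.29% of all genes) and 1 was lower (8.56%). The median difference over the 9 genes was 0.33 in Sca1+ and 0.19 in Sca1- cells, beside 0.03 and 0.02 over all 12264 genes. At 1.5-fold, 3 were higher in both fractions (Zmat3 joining; 11.8% of all genes) and 2 lower (Ei24 joining; 15.0%, and 19.4% in Sca1- cells alone).

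**Figure D1:**
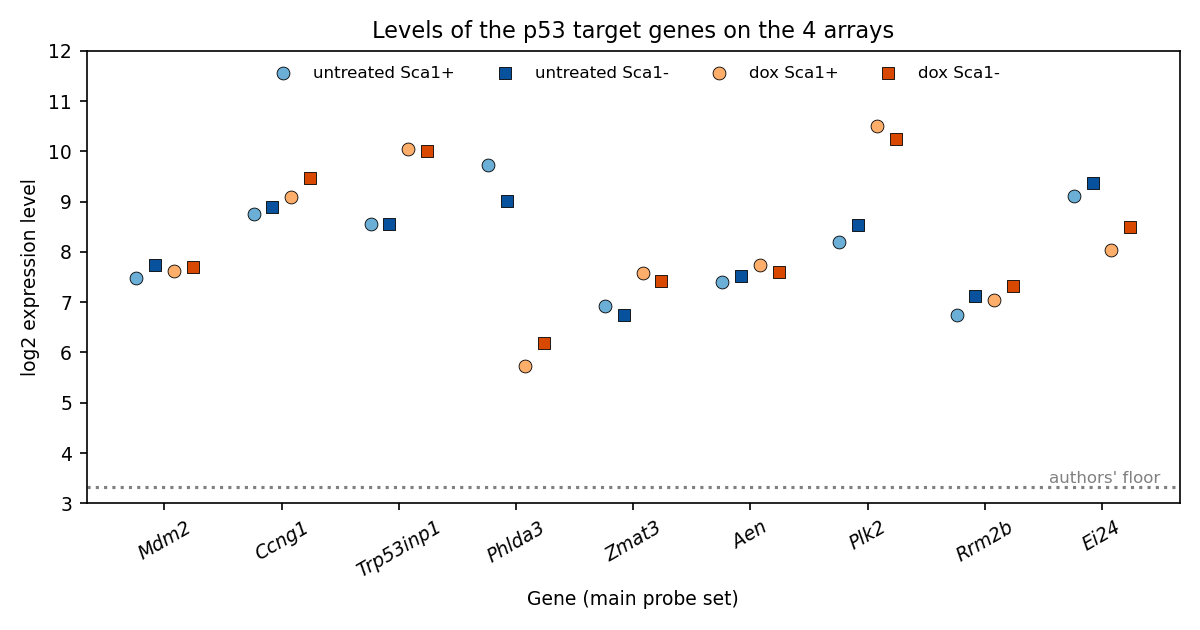
Log2 expression level (y axis) of the main probe set of each gene (x axis) on the 4 arrays, 1 array per group; circles are Sca1+ and squares Sca1- cells, blue untreated and orange dox, and the dotted line is the authors' floor. Both dox arrays lie above both untreated arrays for Trp53inp1 and Plk2 and below them for Phlda3, while the 4 Mdm2 values lie between 7.48 and 7.74.

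Among the genes that feed back on p53, Mdm2, the ubiquitin ligase that marks p53 for degradation, had log2 levels of 7.48 in untreated Sca1+, 7.74 in untreated Sca1-, 7.61 in dox Sca1+ and 7.69 in dox Sca1- cells. The dox values lie between the untreated ones, with dox differences of 0.13 in Sca1+ and -0.04 in Sca1- cells. The first of these became -0.06 when arrays were centred on all probe sets. A second Mdm2 probe set, 1427718_a_at, gave 0.22 and -0.02 (log2), and the remaining set was at the floor on all arrays. Mdm4, the Mdm2 relative that binds p53 and masks its activation domain, had dox differences of 0.18 and -0.06. Both arms of this feedback pair were thus nearly level between dox and untreated cells. Between the fractions the 2 Mdm2 sets off the floor disagreed. Sca1+ minus Sca1- differences without and with dox were -0.25 and -0.08 by the main set and 0.20 and 0.44 by 1427718_a_at.

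Ccng1 encodes cyclin G1, which recruits a phosphatase to Mdm2. Its log2 levels were 8.75 and 8.89 in untreated Sca1+ and Sca1- cells and 9.10 and 9.46 with dox, so that both dox arrays were above both untreated arrays. The dox difference was 0.35 in Sca1+ cells, or 1.27-fold, and 0.57 in Sca1- cells, or 1.49-fold, below the size rule. All 3 Ccng1 probe sets gave similar values, from 0.30 to 0.40 in Sca1+ and from 0.56 to 0.59 in Sca1- cells. Its paralogue Ccng2, a cyclin of cell-cycle exit that FOXO factors induce, had dox differences of 1.98 and 1.73, and was among the genes 2-fold higher in both fractions.

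Trp53inp1, a nuclear protein that promotes p53 phosphorylation and also acts in autophagy, had log2 levels of 8.55 and 8.55 in untreated Sca1+ and Sca1- cells and 10.05 and 10.01 with dox. The fractions were alike within each treatment, and the treatments were 2.84-fold apart in Sca1+ and 2.75-fold apart in Sca1- cells. The difference of 1.51 in Sca1+ cells was the 313th highest among the 10602 genes above the floor on both arrays, and that of 1.46 in Sca1- cells the 315th highest of 10790. A second, dim probe set, 1416927_at, read 3.59 and 3.57 untreated and 4.55 and 3.99 with dox (log2), which gives smaller differences of 0.96 and 0.42 in the same direction. Trp53inp2, an autophagy protein of the same family, stood at 0.41 and 0.23 by its main probe set, while the mean dox effects of its 2 sets, -0.14 and 0.32, go opposite ways.

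Zmat3, a zinc-finger protein that binds RNA and regulates splicing and transcript stability, had log2 levels of 6.91 and 6.75 untreated and 7.58 and 7.43 with dox in Sca1+ and Sca1- cells, by its only probe set. Both dox arrays were higher, by 1.58-fold in Sca1+ and 1.60-fold in Sca1- cells. Of the other Zmat genes that passed the filter, Zmat1 was higher by 1.05 and 0.96, Zmat2 by 0.34 and 0.62 and Zmat5 by 0.50 and 0.75 (log2 differences). Zmat1 was dim, at log2 levels of 3.70 and 3.77 untreated and 4.75 and 4.73 with dox, near the floor of 3.32. The Zmat2 probe sets disagreed, with mean dox effects from -0.51 to 0.80. Zmat4 lay at the floor on every array.

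**Figure D2:**
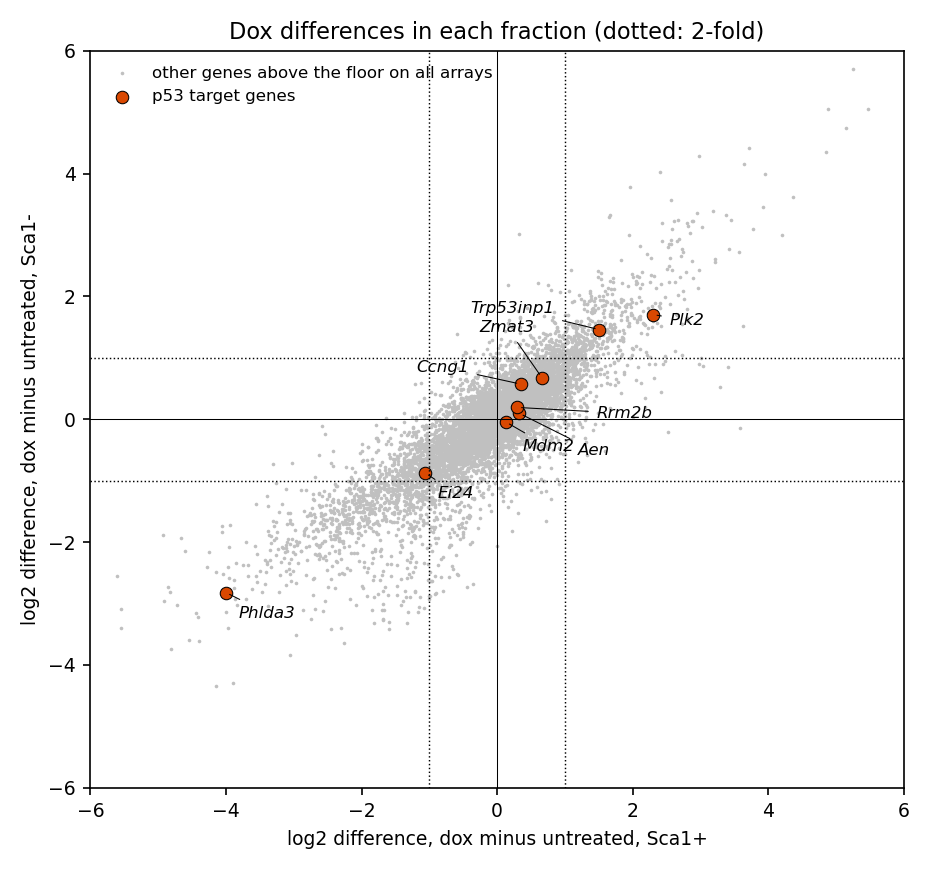
Log2 difference between dox and untreated cells in the Sca1+ (x axis) and the Sca1- fraction (y axis) for genes above the floor on all arrays (10261 genes, of which 2 fall outside the axes); orange points are the p53 target genes and dotted lines mark 2-fold. Plk2 and Trp53inp1 lie in the upper right beyond both lines, Phlda3 at -4.00 and -2.82 in the lower left, and the other 6 between -1.06 and 0.68.

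Phlda3 had the largest difference of the group. It encodes a small pleckstrin-homology protein that competes with the kinase Akt for membrane lipids and so restrains Akt signalling. Its log2 level was 9.73 in untreated Sca1+ and 9.01 in untreated Sca1- cells, and 5.73 and 6.19 with dox. The treatments did not overlap, and the order of the fractions turned over between them: Sca1+ cells had 1.64 times the Sca1- level without dox and were 1.38-fold lower with it. The dox difference of -4.00 in Sca1+ cells was the 23rd lowest among 10602 genes, and that of -2.82 in Sca1- cells the 75th lowest among 10790. The dox effects differ by -1.18 between the fractions, beside a median absolute difference of 0.19 over the 9 genes and 0.27 over all genes; this was not tested. Phlda3 has a single probe set, so no other one can be set beside it. The Phlda paralogues were lower with dox too: Phlda2, an imprinted growth regulator, at -2.15 in Sca1+ cells, a bound since it was at the floor with dox, and at -2.65 in Sca1- cells, and Phlda1 at -0.79 and -0.92 (log2 differences). Unlike Phlda3, both were lower in Sca1+ than in Sca1- cells without dox, Phlda1 at -0.98 and Phlda2 at -1.01.

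Ei24, an endoplasmic reticulum membrane protein needed for autophagy, was the other gene lower with dox. Its log2 levels were 9.10 and 9.37 in untreated Sca1+ and Sca1- cells and 8.04 and 8.50 with dox. Both dox values lie below both untreated values, by 2.09-fold in Sca1+ and 1.83-fold in Sca1- cells, so that Ei24 passed the 2-fold rule in 1 fraction only; whether the fractions differ was not tested. Among all genes above the floor, 11.5% had a lower dox difference in Sca1+ and 13.1% in Sca1- cells.

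Plk2, a polo-like kinase of centriole duplication that serum and stress also induce, had the largest increase. Its log2 levels were 8.19 in untreated Sca1+ and 8.54 in untreated Sca1- cells, against 10.49 and 10.25 with dox. The treatments are 4.92-fold apart in Sca1+ and 3.26-fold apart in Sca1- cells. The difference of 2.30 in Sca1+ cells ranked 101st from the highest among 10602 genes and that of 1.71 in Sca1- cells 210th among 10790. A second probe set, 1443780_at, lay at the floor on all arrays and carries no information on direction. The other polo-like kinases differed the other way: Plk4, the master kinase of centriole duplication, by -0.92 and -1.75, Plk1, the mitotic kinase, by -0.39 and -1.44, and Plk3 by -0.43 and -0.79 (log2, Sca1+ and Sca1-).

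Rrm2b encodes the small subunit of ribonucleotide reductase that p53 induces to supply deoxynucleotides outside S phase. Its log2 levels were 6.75 and 7.13 in untreated Sca1+ and Sca1- cells and 7.05 and 7.32 with dox; the dox Sca1+ value lies below the untreated Sca1- value, so the treatments overlap. The dox difference was 0.30 in Sca1+ and 0.19 in Sca1- cells. The 4 Rrm2b probe sets disagreed, with mean dox effects from -0.11 (1437476_at) to 0.87 (1437222_x_at), and 2 dim sets had larger differences: 1437222_x_at gave 0.91 in Sca1+ cells and 0.83 in the Sca1- fraction, and 1437221_at at 0.26 and 1.00. The subunits used in S phase had lower levels with dox: Rrm2 went from 11.35 to 9.51 in Sca1+ and from 11.01 to 7.92 in Sca1- cells, and the large subunit gene Rrm1 from 10.34 to 9.35 and from 9.51 to 7.47 (log2). Of the 3 Rrm1 probe sets, 1 was at the floor on all arrays, and the other 2 had mean dox effects of -1.51 and -1.50.

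Aen, a nuclease that p53 induces and that degrades DNA in dying cells, had log2 levels of 7.41 and 7.51 untreated and 7.74 and 7.61 with dox in Sca1+ and Sca1- cells. The dox differences of 0.33 and 0.10 are small, and the next brightest Aen probe set, 1450506_a_at, gave -0.31 and -0.0037, so no direction can be given for Aen. Isg20, an interferon-induced nuclease of the same family, went from 8.39 to 5.58 in Sca1+ and from 8.16 to 6.39 in Sca1- cells (log2), a difference of -2.81 and -1.77. Isg20l2, another family member, was at -0.18 and -0.28.

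**Figure D3:**
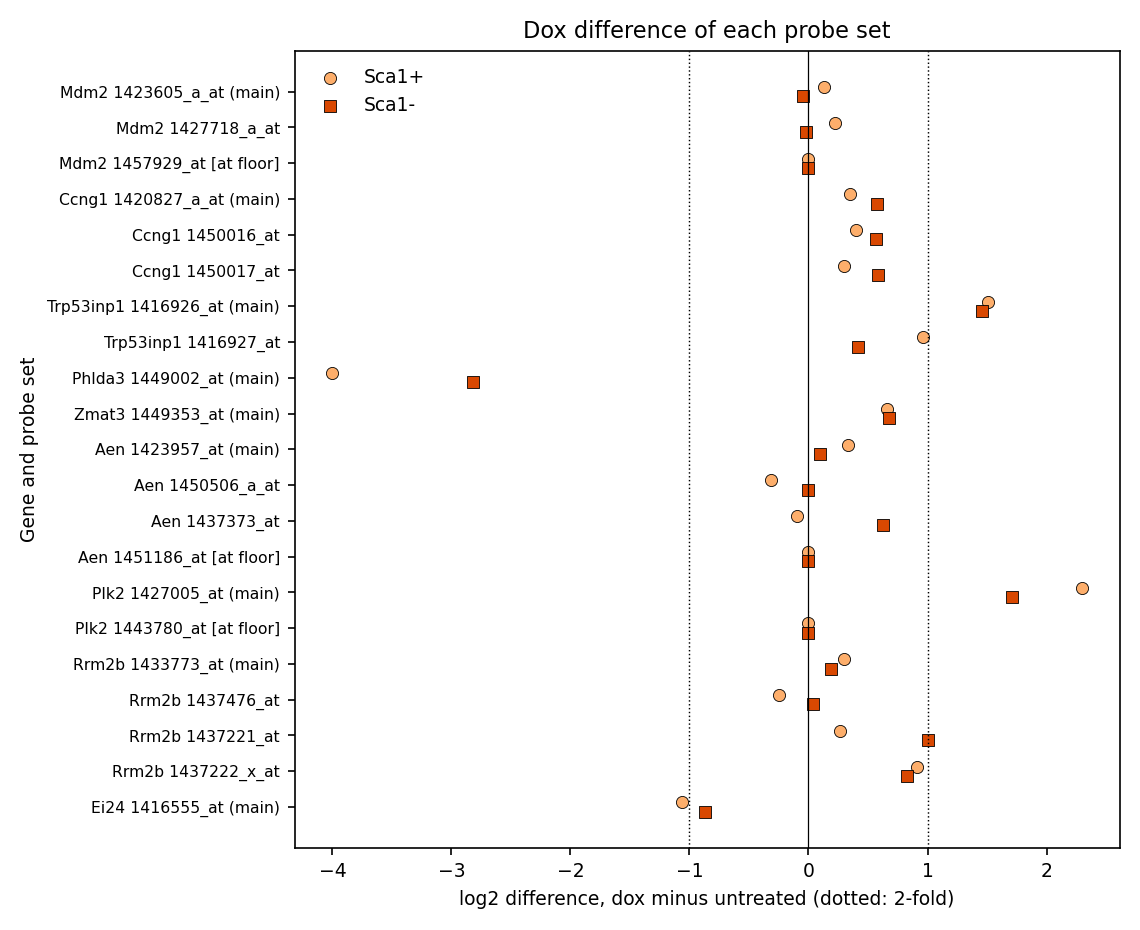
Log2 difference between dox and untreated cells (x axis) for each of the 21 probe sets of the p53 target genes (y axis), circles Sca1+ and squares Sca1-; dotted lines mark 2-fold, and sets marked as at floor lie there on all 4 arrays. The 3 Ccng1 sets cluster between 0.30 and 0.59, the Aen and Rrm2b sets lie on both sides of 0, and Phlda3, Zmat3 and Ei24 have 1 set each.

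Of the 21 probe sets, 18 were above the floor on all arrays and 3 (1 each of Mdm2, Aen and Plk2) were at the floor on all of them. When the sets of a gene were averaged, Plk2 stood at 0.85 and Trp53inp1 at 0.94 in Sca1- cells (log2), below 2-fold, so that 0 of 9 genes were 2-fold higher there; the average draws Plk2 toward its set at the floor. In an additive limma fit with terms for dox and Sca1 over all 12264 genes, Benjamini-Hochberg adjusted p for dox was 0.00855 for Phlda3, 0.00998 for Plk2, 0.0100 for Trp53inp1, 0.0212 for Ei24 and 0.0443 for Zmat3. The fit gave 0.111 for Ccng1 and 0.308 or more for Rrm2b, Aen and Mdm2. That is 3 genes higher, where 11.9% of all genes were called, and 2 lower, where 14.8% were called. Per gene the fit has 1 residual degree of freedom, which comes from the difference of the dox effects between the fractions. Its p-values thus do not measure a spread between replicates. The fit also takes the fractions as separate samples although those of one treatment may share a culture, which the labels do not settle, so its p-values may be too small.

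Between the fractions, none of the 9 genes was 2-fold different without dox, where 3.07% of all genes were higher and 3.33% lower in Sca1+ cells, or with dox, where 2.52% were higher and 2.98% lower; across both, 1.08% of all genes were higher and 0.881% lower each time. At 1.5-fold, 1 of the 9, Phlda3, was higher in Sca1+ cells without dox, against 8.47% of all genes. The Sca1+ minus Sca1- differences ran from -0.38 (Rrm2b) to 0.72 (Phlda3) without dox and from -0.47 (Phlda3) to 0.25 (Plk2) with dox. In the additive limma fit 0 of 12264 genes (0.0% higher and 0.0% lower) and 0 of the 9 passed an adjusted p of 0.05 for Sca1, while 757 genes were higher and 922 genes lower where the p was left unadjusted (under 0.05), and Ei24 had the lowest unadjusted p of the 9 genes, 0.0874, at a mean difference of -0.36. By their main probe sets, Ei24, Rrm2b and Ccng1 were lower in Sca1+ cells in both comparisons. Ei24 was at -0.27 and -0.45, Rrm2b at -0.38 and -0.27 and Ccng1 at -0.14 and -0.36. The Ccng1 value without dox became 0.09 when arrays were centred on all probe sets. Without dox the probe sets disagreed, from -0.79 to 0.46 for Rrm2b and from -0.16 to 0.13 for Ccng1. With dox all sets of both genes were lower, from -0.70 to -0.27 and from -0.36 to -0.16. Zmat3 was higher in both, by 0.17 and 0.15. Beside them, Plk1 was higher in Sca1+ cells by 1.45 without and 2.49 with dox, Plk4 by 0.99 and 1.82 and Rrm1 by 0.83 and 1.89.

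**Figure D4:**
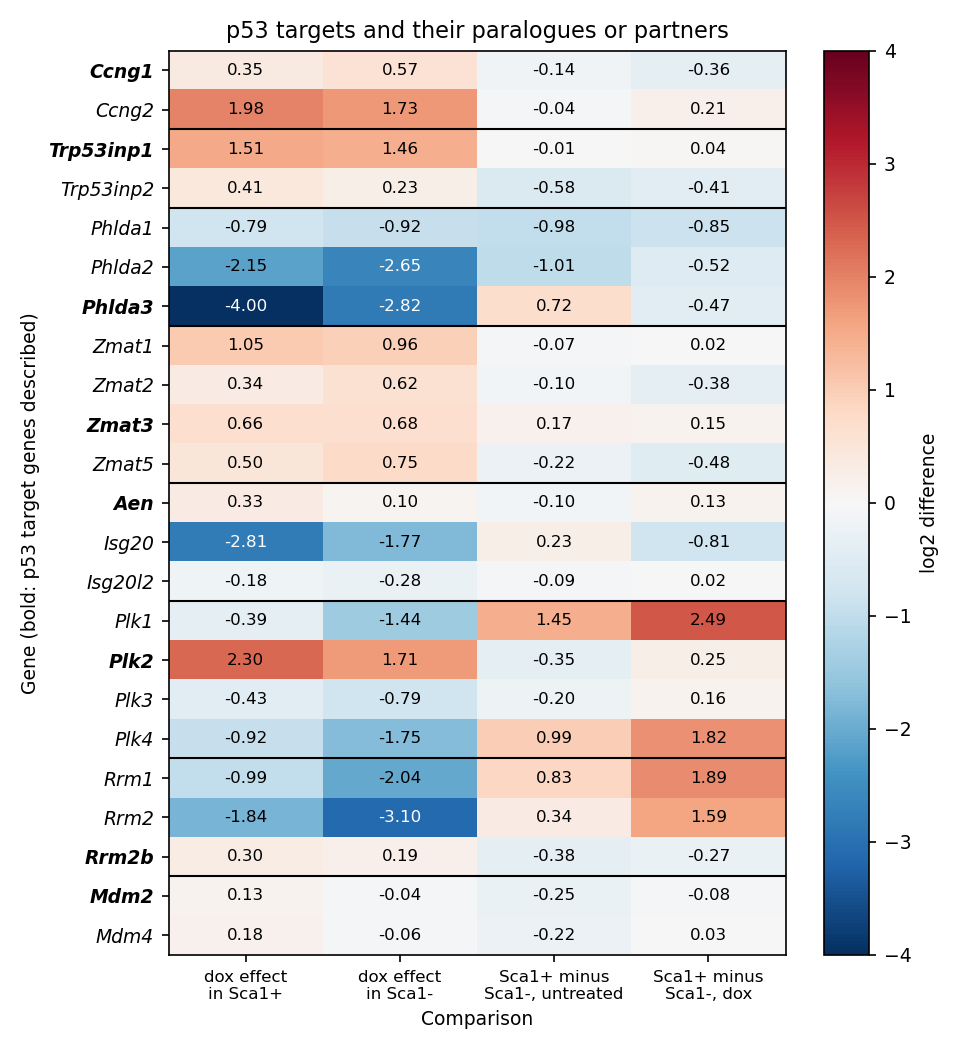
Log2 differences (colour and printed value) of the p53 target genes (bold) and their paralogues or partners (rows, grouped by family) in 4 comparisons (columns); red is higher and blue lower with dox or in Sca1+ cells, and the Phlda2 value in Sca1+ cells is a bound set by the floor. Plk2 at 2.30 and 1.71 stands against negative dox effects of Plk1, Plk3 and Plk4, and Rrm2b at 0.30 and 0.19 against negative ones of Rrm1 and Rrm2.

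The wider p53 network was read from lists of other genes, to be set beside the 5.29% of all genes that were 2-fold higher and the 8.56% that were lower with dox in both fractions, and medians of 0.03 and 0.02. Of 17 p53 family members and regulators that passed the filter, 0 were 2-fold higher with dox in both fractions and 1, the checkpoint kinase gene Chek1 (-1.11 and -2.03), was lower; the median dox difference was -0.19 in Sca1+ and -0.04 in Sca1- cells. Of the 5 Chek1 probe sets, 2 were at the floor on all arrays and the other 3 had mean dox effects from -1.83 to -1.57. Trp63, the p53 relative of basal epithelium, was higher in Sca1+ cells, at log2 levels of 10.14 against 8.77 untreated and 9.70 against 8.63 with dox, and its dox differences were -0.43 and -0.15. Trp53bp1, which encodes a p53-binding protein of DNA repair, was at 0.94 and 0.85 by its main probe set, but its 4 sets off the floor disagreed, with mean dox effects from -0.36 to 1.06. Cdkn2a, of whose products ARF inhibits Mdm2, was higher with dox by 0.60 and 0.82. It was read from a single probe set, and which product this reflects was not tested. Atm, the kinase that activates p53 after double-strand breaks, was at -0.45 and -0.47, and Ppm1d, a p53-induced phosphatase that switches the response off, at -0.45 and -0.41.

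The next list held other p53 targets of growth arrest, repair and metabolism, of which 19 passed the filter. Of these 19 listed genes, 0 were 2-fold higher with dox in both fractions and 2 were lower. The medians were -0.09 in Sca1+ and 0.01 in Sca1- cells. The 2 lower genes were Sesn2 (-2.08 and -1.99) and Ccnd1 (-2.20 and -1.55). Sesn2 is a sestrin that restrains mTORC1 and is also induced by ATF4. Ccnd1, the G1 cyclin D1, drives the cell cycle, and its lower level was not read as p53 output. Cdkn1a, the CDK inhibitor p21 and the best known p53 target, had log2 levels of 8.74 and 7.87 untreated and 8.86 and 8.65 with dox, differences of 0.12 and 0.78. Gadd45a was at -1.92 and -0.85. By their main probe sets, Sesn1 (0.54 and 0.92), the polymerase gene Polk (0.67 and 0.71) and the fructose bisphosphatase gene Tigar (0.40 and 0.88) were higher by less than 2-fold. The 3 Tigar sets had mean dox effects from 0.64 to 1.14. Prkab1 (-0.56 and -0.64), Plk3 (-0.43 and -0.79) and Btg2 (-0.07 and -0.79) were lower by less than 2-fold, again by main probe sets. The 2 Btg2 sets had mean dox effects of -0.43 and 0.07. Ptpn14 was at -0.85 and 0.14, and its sets had mean dox effects from -0.36 to 0.85. At 1.5-fold in both fractions, 1 of the 19 was higher (11.8% of all genes) and 3 were lower (15.0%). Fdxr and Gls2 were not analysed here, and Rprm lay at the floor.

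Of 11 genes listed as p53 targets of cell death that passed the filter, 3 were 2-fold higher with dox in both fractions and 2 lower, with medians of 0.03 and 0.15. Bax, also listed, had no probe set under its symbol alone and was not analysed here. The higher ones were Pmaip1 (Noxa) with log2 levels of 7.19 and 7.14 untreated and 10.03 and 10.17 with dox, Apaf1 (1.48 and 1.60) and Bcl2l11 (1.28 and 1.93), and the lower ones were Siva1 (-2.03 and -1.74) and Steap3 (-1.27 in Sca1+ cells, a bound set by the floor, and -2.09 in Sca1- cells). A second Apaf1 probe set was at the floor on all arrays, the Bcl2l11 sets had mean dox effects from 0.74 to 1.61, and those of Steap3 off the floor ran from -1.68 to -0.02. Bbc3 (Puma), a BH3-only gene that p53 induces, was at -0.20 and 0.15. Whether p53 induces the listed genes, Bcl2l11 among them, in these cells was not tested. Of 15 paralogues and partners, 1 was 2-fold higher in both fractions (Ccng2) and 3 lower (Phlda2, Isg20 and Rrm2), with medians of -0.39 and -0.79.

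Gdf15 itself was not read, but genes that share its stress inputs were: of 10, 1 was 2-fold higher in both fractions with dox, the stress factor gene Atf3 (1.58 and 1.67), and 3 were lower, Psat1 (-2.70 and -2.59), Trib3 (-2.57 and -1.56) and Chac1 (-2.27 and -1.47), all of the ATF4 response. The median over the 10 genes was -0.58 in Sca1+ and -0.62 in Sca1- cells, and Atf4 was at -0.66 and -0.66. Asns (-0.25 and -0.57) and Ddit3 (-0.51 and 0.14), of the same list, stayed within 2-fold in both fractions. The mean dox effects of the 2 Ddit3 sets, -0.19 and 0.07, go opposite ways.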

How the data were processed

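Expression was measured on Affymetrix 3' IVT arrays in 4 groups, 1 array each. The deposited table holds log2 levels per probe set; how the authors summarized and scaled the arrays, and with which software, is not stated in any source used here, and a shared minimum shows a floor at a linear level of 10. Of 45101 probe sets, 34958 had 1 gene symbol in the platform annotation, 932 several and 9211 none; only the first kind was named. A gene was read from its probe set of highest mean, and genes whose highest array reached the pooled median (3.63) were analysed. Differences of log2 levels were counted at 2-fold. The additive fit used limma 3.58.1 in R 4.3.3; other steps used Python 3.11.15, and the steps were tested on simulated data. Arrays were taken as deposited; their number limits the precision. All 9 measured genes are described, with other genes only from the lists and, within a list, mainly those 2-fold different in both fractions. Further genes were named for their role or their values, after the values were seen. The genes and lists were chosen with earlier results of these data known. Alternatives changed the probe set rule, scaling, floor, filter and size rule.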

Additional observations from a re-analysis of the deposited data

Results flagged for a closer look

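For 5 values the sign differed between conditions, which was not tested and rests on 1 array per group. The dox difference of Mdm2 was 0.13 in Sca1+ and -0.04 in Sca1- cells (log2). The Sca1+ minus Sca1- difference without and with dox was 0.72 and -0.47 for Phlda3, -0.35 and 0.25 for Plk2, -0.10 and 0.13 for Aen, and -0.01 and 0.04 for Trp53inp1. Of the 5, the Phlda3 value without dox alone exceeds 1.5-fold. With arrays centred on all probe sets the signs no longer differed for Mdm2 (-0.06 and -0.0063), Aen (0.12 and 0.12) or Trp53inp1 (0.22 and 0.04). With probe sets averaged, those of Aen turned to 0.03 and -0.17, and those of Trp53inp1 became 0.0090 and 0.31. Phlda3 and Plk2 kept their signs under both of these alternatives.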

How the results depend on the processing

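The counts of 2-fold genes among the 9 were the same with arrays centred on bright or on all probe sets, with the floor raised to 32, and under each of the 3 other filters on low values. With probe sets averaged, 0 genes passed 2-fold upward with dox in Sca1- cells and 0 in both fractions. At 1.5-fold, 3 were higher with dox in Sca1+ cells, 3 in Sca1- cells and 3 in both fractions. At that size 2 were lower with dox in Sca1- cells and 2 in both fractions, and 1 was higher in untreated Sca1+ than Sca1- cells. The additive limma fit called 3 higher and 2 lower for dox. Centring on all probe sets moved the median dox difference of all genes in Sca1+ cells from 0.03 to -0.16, and that between untreated fractions from -0.01 to 0.21; the share of higher genes among those 2-fold different went from 39.7% to 27.3% and from 48.0% to 70.0%. Among the 9 genes, the 2-fold differences kept their direction under the 5 alternatives in which single genes were recomputed (averaged probe sets, both centrings, the raised floor and no filter). No paired analysis was possible because no replicate numbers pair the arrays; the additive limma fit, in which dox is compared within each fraction, is the nearest to one.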
